A study of Mus musculus with 64 samples.

Results

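Omental adipose tissue of old Myc knockout mice (MycKO) was compared with that of old wild-type mice (WT). The 10 libraries, 5 of each genotype, are those of the series' 64 whose labels give omental adipose tissue and an age of 20 months. Their library codes (K18F26 to K18F30 for MycKO and W18F21 to W18F25 for WT) carry the number 18, while the age label of each reads 20 months, and the label is used here. The MycKO strain is labelled as a cross of 2 lines of B6.129 and B6.129S6 background. One carries the Gt(ROSA)26Sortm1(cre/ERT2)Tyj allele, a Cre recombinase that tamoxifen activates, and the other the Myctm2Fwa allele, in which the Cre cuts out part of Myc. The WT strain is given as C57/B6. Mice of both genotypes are labelled as given tamoxifen (75 mg/kg, intraperitoneal, in corn oil) on 5 days at weaning, once they weighed 15 g or more. The Cre is driven from a locus that is active in nearly all cells, so the model is of the whole body and not of fat. The WT mice carry neither the Cre nor the flanked Myc gene, so loss of Myc, presence of the engineered alleles and strain background cannot be told apart.

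The series also holds adipose tissue at 5 months (6 libraries of each genotype), and liver and muscle at both ages. Values are the deposited CPM, a read signal scaled by 1 factor per library. Old adipose libraries held 17499898 to 28500633 reads on genes and 19206 to 20545 detected genes. Each of the 10 expressed the Y-linked gene Ddx3y at 64.6 CPM or more, and Xist stayed at 0.333 CPM or less. Labels do not say how many animals gave the libraries or which tissues share an animal, so p-values measure the spread between these libraries.

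Myc is a transcription factor that pairs with Max and binds the E-box CACGTG. It is best known for raising ribosome production, nucleotide synthesis, glycolysis and entry into the cell cycle. Omental fat is a visceral depot in which adipocytes lie among progenitors, vessels, macrophages, a mesothelial cover and small lymphoid clusters.

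Myc was lower in MycKO tissue, though not absent. Its CPM were 8.28, 6.33, 7.34, 5.14 and 9.72 in the MycKO libraries and 11.4, 13.2, 10.8, 8.1 and 16.3 in the WT libraries, and the groups overlapped because WT library W18F24 (8.1) lay below MycKO libraries K18F26 and K18F30. The mean was 7.36 ± 1.76 against 11.97 ± 3.03 CPM (SD, n = 5 each), a difference of -0.63 on the log2(CPM + 1) scale (two-sided exact permutation test p = 0.0238, 0.0238 after adjustment over the 3 engineered genes). The Myc gene (chromosome 15, 61985341 to 61990361, GRCm38.p6) was counted as a whole, so reads from exons outside the deleted part are included. Its long noncoding neighbour Pvt1 (chromosome 15, 62037986 to 62260215) was higher in MycKO tissue. Pvt1 measured 4.94, 7.9, 8.71, 4.36 and 5.39 CPM in MycKO and 2.32, 3.07, 3.14, 2.22 and 2.42 CPM in WT libraries, with no overlap. The difference was 0.97 on the log2 scale (exact permutation p = 0.00794, the smallest that this design can give, adjusted 0.0119). Pvt1 was chosen for this test with earlier results of these data known. Its p-value therefore describes the separation of these libraries and is no independent evidence.

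Gt(ROSA)26Sor, the noncoding gene that holds the Cre insert (chromosome 6, 113067428 to 113077244), was lower in MycKO tissue. It measured 2.77, 5.81, 4.08, 3.02 and 2.52 CPM in MycKO and 7.31, 8.19, 7.37, 7.6 and 7.53 CPM in WT libraries. WT libraries were tightly grouped and all lay above the MycKO libraries, with K18F27 the nearest to them. The difference was -0.93 on the log2 scale (exact permutation p = 0.00794, adjusted 0.0119). This gene too was chosen with earlier results of these data known, so its permutation p is no independent evidence. Across all genes tested with limma, the adjusted p was 0.453 for Myc, 0.188 for Pvt1 and 0.188 for Gt(ROSA)26Sor, and none of these passed 0.05.

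**Figure D1:**
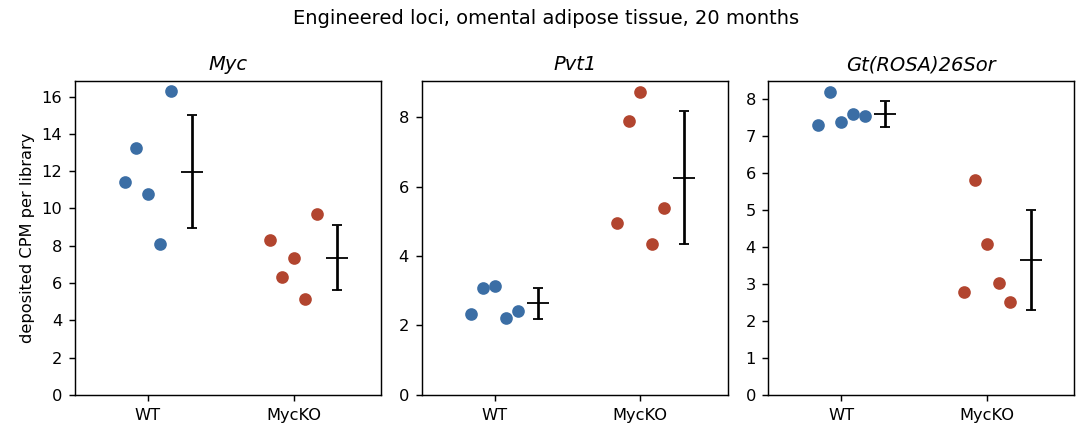
Deposited CPM of Myc, Pvt1 and Gt(ROSA)26Sor in each old adipose library (points; WT blue, MycKO red), with the group mean and SD beside them (n = 5 each). The Pvt1 and Gt(ROSA)26Sor groups do not overlap, while WT library W18F24 lies among the MycKO values of Myc.

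Across the transcriptome, limma called no gene different between the genotypes (0 of 13460 genes, 0%, Benjamini-Hochberg adjusted p under 0.05). The smallest adjusted p was 0.162. At an unadjusted p under 0.05, 548 genes were higher in MycKO tissue (4.07%) and 513 were lower (3.81%). With values scaled by library totals, 405 were higher and 634 lower, and with TMM factors 492 and 571. Leaving out 1 library moved the higher count between 323 (without W18F24) and 930 (without K18F28). edgeR's quasi-likelihood test on the recovered reads called 0 genes, with 1089 at an unadjusted p under 0.05. DESeq2 on the same reads called 92 genes (0.684%), 44 higher and 48 lower. The MycKO libraries varied more among themselves, with a median SD over genes of 0.249 (log2) against 0.166 in WT. Single genes are therefore described below by their levels.

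In 88 genes every MycKO library lay above every WT library (0.654%), and in 87 every one lay below (0.646%). Among those with a mean of at least 5 CPM, the 10 in each direction with the smallest limma p are described next. Lcn2, which encodes lipocalin 2, a secreted iron-siderophore carrier of neutrophils and inflamed fat, measured 9.63, 14.2, 10.5, 15.5 and 6.21 CPM in MycKO and 3.03, 3.74, 3.87, 3.14 and 2.65 CPM in WT libraries. The lowest MycKO library still had more than the highest WT library, and the mean ratio was 3.41 (log2 difference 1.46 ± 0.20 SE, limma adjusted p = 0.162, DESeq2 adjusted p = 4.71e-09). Bst1, an ectoenzyme of the CD38 family that uses NAD, measured 11.6, 11.4, 11.7, 8.69 and 12.9 CPM against 6.21, 4.97, 6.98, 4.69 and 4.43 CPM (0.93 ± 0.14, limma adjusted p = 0.162). Cd14, the co-receptor for lipopolysaccharide, measured 34.8, 43.7, 57.7, 31.2 and 38.4 CPM against 20.8, 21.4, 23.4, 11.3 and 22.8 CPM (1.02 ± 0.21, limma adjusted p = 0.285).

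Vsig4, the complement receptor of resident macrophages, averaged 17.7 against 11.3 CPM (0.61 ± 0.11). Plaur, the urokinase receptor, averaged 19.2 against 10.9 CPM (0.78 ± 0.14). The sorting nexin Snx10, needed for bone resorption by osteoclasts, had a log2 difference of 0.41 ± 0.09. The others of the 10 are metabolic or less well described. Nampt, the rate-limiting enzyme of NAD salvage that is also secreted as visfatin, measured 70.3, 87.4, 82.3, 82.7 and 71.1 CPM in MycKO and 46.9, 51.9, 55.5, 54.0 and 56.7 CPM in WT libraries (0.56 ± 0.09, limma adjusted p = 0.188). Glul, glutamine synthetase, measured 737, 809.7, 1101, 1012 and 836 CPM against 591, 425, 537, 387 and 509 CPM (0.88 ± 0.16, limma adjusted p = 0.188). Gch1, which starts tetrahydrobiopterin synthesis, differed by 0.62 ± 0.14 and Ttc39c by 0.45 ± 0.09.

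The 10 lower genes include signalling, calcium and secretory genes. Atp2a3 (the SERCA3 calcium pump of the endoplasmic reticulum) measured 60.8, 71.8, 86.6, 83.3 and 68.2 CPM in MycKO and 125, 144, 107, 177 and 124 CPM in WT libraries (-0.85 ± 0.14, limma adjusted p = 0.188). Axin2, the feedback inhibitor and usual readout of canonical Wnt signalling, measured 15.0, 13.0, 14.6, 11.9 and 10.6 CPM against 25.5, 17.8, 19.5, 24.1 and 23.2 CPM (-0.71 ± 0.13, limma adjusted p = 0.188). For both genes the highest MycKO library was below the lowest WT library. Edem1, which routes misfolded glycoproteins to degradation, measured 112, 96.3, 83.1, 103 and 107 CPM against 137, 147, 167, 149 and 147 CPM (-0.57 ± 0.10). The kinase gene Prkce differed by -0.81 ± 0.16, the junction scaffold Magi1 by -0.59 ± 0.12, the collagen-binding integrin Itga1 by -0.58 ± 0.11 and the secreted C1qtnf1 by -0.59 ± 0.12. The noncoding D430019H16Rik averaged 2.57 ± 1.45 against 10.02 ± 5.01 CPM (SD, n = 5 each), with 16.8 and 14.0 CPM in W18F24 and W18F25 and at most 7.17 CPM in the other WT libraries. Gt(ROSA)26Sor and Dkc1 complete the 10.

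**Figure D2:**
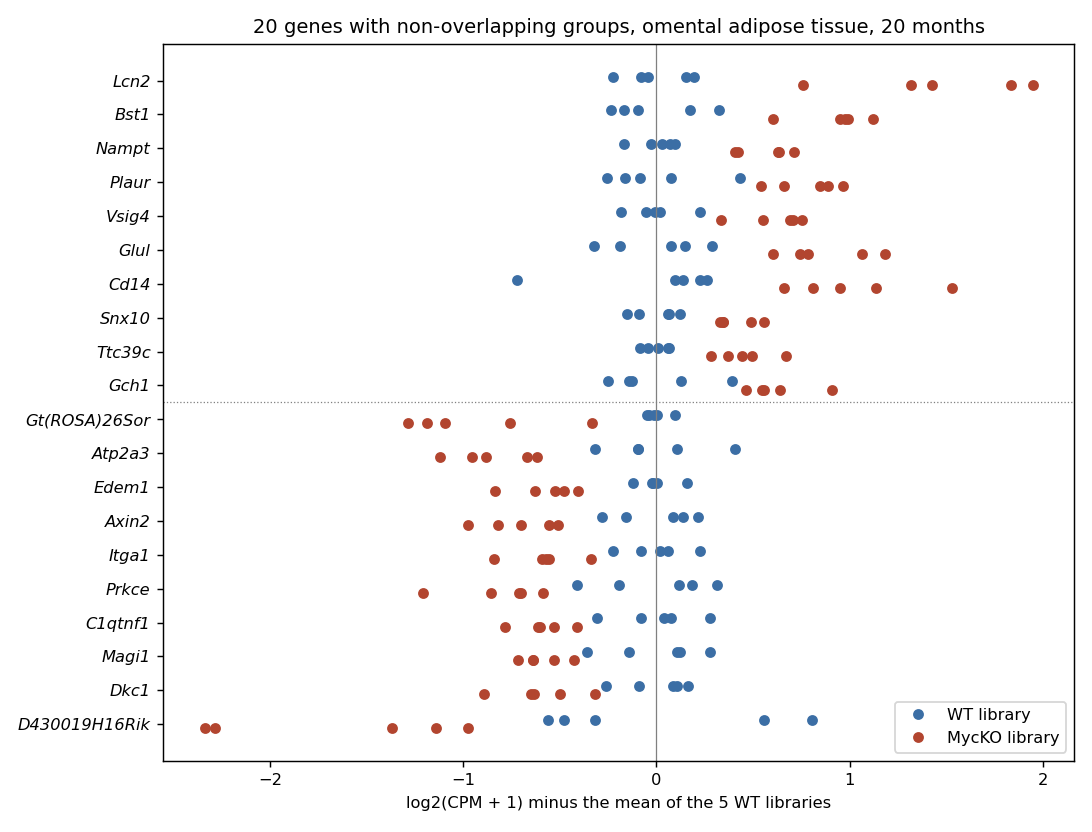
The 20 genes named for groups that do not overlap: each point is 1 library, placed by its log2(CPM + 1) minus the mean of the 5 WT libraries (WT blue, MycKO red). In every row the MycKO libraries lie wholly to 1 side of the WT libraries, as for Lcn2, whose lowest MycKO library has 6.21 CPM and highest WT library 3.87 CPM.

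Genes whose groups did not overlap were described by position as well. Within 20 Mb of Gt(ROSA)26Sor they were 10 of 206 tested genes (4.85%), 9 of them lower in MycKO tissue, against 175 of 13460 over all genes (1.30%). The 9 are Gt(ROSA)26Sor itself, Bid, Magi1, Wnt5b, Zfp9, Setd5, Edem1, Kdm5a and Clec1a, and Washc2 was the higher one. Within 20 Mb of Myc they were 2 of 226 (0.885%), Pvt1 and Zfp623. The window was chosen with results of these data known, and effects of the engineered allele and of strain-derived sequence linked to it cannot be told apart.

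Cell type markers were summed in each library. The 12 macrophage markers summed to 6197, 3768, 2131, 4123 and 5883 CPM in MycKO and 1544, 2536, 3982, 1738 and 2331 CPM in WT libraries. The groups overlapped, with K18F28 low among the MycKO and W18F23 high among the WT libraries. The median marker was 0.66 (log2) higher in MycKO tissue, against 0.005 over all 13460 genes. Of the 12 markers, 11 had positive differences, none passed adjustment, and 6 had an unadjusted p under 0.05, including the lysozyme gene Lyz2 (0.93 ± 0.27, limma adjusted p = 0.419) and the complement gene C1qb (0.79 ± 0.22). Over all genes 4.07% were higher at an unadjusted p under 0.05. Csf1r, the receptor that most macrophages need, differed by 0.33 ± 0.24. Neutrophil and mast cell markers had a median of 0.53, with 6 of 7 tested positive, and summed to 82.4, 51.4, 62.9, 36.4 and 63.1 CPM in MycKO and 33.0, 38.0, 51.0, 32.9 and 44.7 CPM in WT libraries. The largest difference of that list was in the mast cell gene Tpsb2 (0.96 ± 0.32), and Kit was the negative one (-0.34 ± 0.16). The defining neutrophil gene Ly6g was listed at 0 in all 10 libraries. The part of macrophage, neutrophil and mast cell content in the genes above was not tested. Among MycKO libraries Cd14 was highest in K18F28, which had the lowest macrophage sum, while Apobec1, described below, followed the order of the sum. Neither order is a test of that part. In bulk tissue more cells and more RNA per cell cannot be told apart.

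Markers of other cell types were summed in the same way. The summed adipocyte markers ran from 11777 to 22069.5 CPM in MycKO and from 12033 to 19316 CPM in WT libraries. Of the 10 adipocyte markers 8 had negative differences, with a median of -0.23. Plin1 and Aqp7 were the 2 lower at an unadjusted p under 0.05, beside 3.81% of all genes. Of the B and plasma cell markers, 8 of 9 tested were lower in MycKO tissue, with a median of -1.14 and 6 at an unadjusted p under 0.05. In this list Ighm and Igkc were listed at 0 in all 10 libraries. Hepatocyte markers were uneven, with Alb at 514 CPM in K18F27 and at 2.26 to 206 CPM in the other 9 libraries, and K18F27 alone lay far along the second principal component (18.4% of the variance). Epididymis and gonad markers were near 0 except for 26.1 CPM in K18F26, which came from the seminal vesicle genes Svs4 (13.7 CPM) and Svs2 (12.2 CPM). All 12 mesothelial markers had positive differences with none at an unadjusted p under 0.05. Skeletal muscle markers summed to 314, 468, 382, 188 and 385 CPM in MycKO and 179.8, 162, 209.9, 117 and 221 CPM in WT libraries, overlapping through K18F29. Most of these sums came from the actin gene Acta1 (341 ± 103 against 167 ± 43.6 CPM, SD, n = 5 each), and 4 of the 5 tested markers had negative differences.

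**Figure D3:**
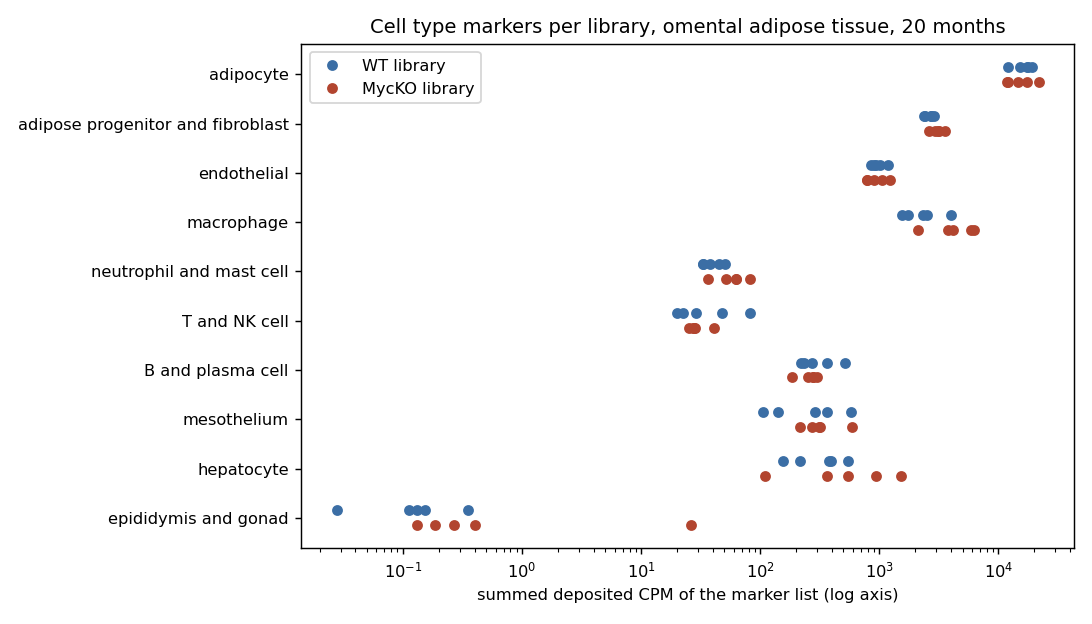
Summed CPM of 10 cell type marker lists in each old adipose library on a log axis (WT blue, MycKO red). MycKO libraries reach the highest macrophage sums (up to 6197 CPM) but overlap with WT, and 1 MycKO library stands apart at 26.1 CPM for epididymis and gonad markers.

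Processes that Myc is known to drive showed small differences between the genotypes. None of the 52 ribosome biogenesis genes was called, 1 had an unadjusted p under 0.05, and the list's median log2 difference was 0.01. That 1 gene was Dkc1 (chromosome X, 75095854 to 75109776), the pseudouridine synthase of small nucleolar particles and telomerase. Dkc1 measured 7.14, 9.25, 5.88, 8.05 and 7.25 CPM in MycKO and 12.8, 12.5, 9.67, 13.3 and 11.01 CPM in WT libraries, with no overlap (-0.60 ± 0.12, limma adjusted p = 0.285, DESeq2 adjusted p = 0.00293). The next of the list, the pre-ribosome factor Noc3l, differed by -0.21 ± 0.10. Among 79 cytosolic ribosomal protein genes all differences lay between -0.13 and 0.13, with none at an unadjusted p under 0.05. Likewise none of the 77 mitochondrial ribosomal protein genes (median 0.03) and none of the 77 oxidative phosphorylation subunits (median 0.02) reached an unadjusted p under 0.05.

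Promoters of the ribosome biogenesis list were searched for the Myc and Max E-box, and a few are shown because ribosome production is the process Myc is best known for. RefSeq promoters (250 bases before to 50 after the start, GRCm38.p6) were matched for 46 of the 52 genes, and 9 of the 46 (19.6%) held CACGTG, a palindrome that reads alike on both strands. The share was 11.5% among all tested genes with a promoter, 8.09% over all genes and 7.15% over all 32851 promoters of that length. In 6 other process lists it was higher, up to 41.7% in the Myc network. In 2 of the 9 genes the motif lay wholly before the start: in Imp4, a small-subunit processome protein, and Nop2, an rRNA cytosine methyltransferase. Each is printed 5′ to 3′ on the gene's strand, 100 bases long, with the E-box in capitals, beside the 100 bases before the start of Dkc1, whose promoter window has no such letters.
Imp4, chr1:34439661-34439760: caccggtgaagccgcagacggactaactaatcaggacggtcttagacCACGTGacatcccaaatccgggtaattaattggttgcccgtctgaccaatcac
Nop2, chr6:125131776-125131875: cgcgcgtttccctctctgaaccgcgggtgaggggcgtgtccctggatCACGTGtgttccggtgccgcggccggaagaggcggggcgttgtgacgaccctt
Dkc1, chrX:75095754-75095853: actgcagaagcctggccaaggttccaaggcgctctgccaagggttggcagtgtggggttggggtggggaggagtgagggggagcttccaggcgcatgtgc
Imp4 averaged 23.7 against 22.8 CPM (0.05 ± 0.10) and Nop2 14.7 against 14.8 CPM (-0.02 ± 0.09). Dkc1 is shown because its values were already known to be lower in MycKO tissue. The 9 genes with the motif are not all shown, so these sequences cannot link the motif to a difference between the genotypes. The motif was in 19.1% of the matched genes whose groups separated upwards and in 11.6% of those that separated downwards, beside the 11.5% of all tested genes. These shares are descriptions, with no test.

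In the Myc network itself, 3 of 11 tested members had an unadjusted p under 0.05, all lower, beside 3.81% of all genes. They were Myc (the targeted gene), the glucose-responsive partner gene Mlxipl (23.3 against 31.5 CPM, -0.41 ± 0.15) and Mga (-0.27 ± 0.11). The dimer partner Max measured 37.9 ± 3.35 against 36.0 ± 3.08 CPM (SD, n = 5 each), and the repressor Mnt differed by 0.18 ± 0.11. Nucleotide synthesis genes had a median of -0.04 over 25 members, with the phosphoribosyl pyrophosphate synthetase Prps2 the only one at an unadjusted p under 0.05 (-0.27 ± 0.09, no overlap). The multifunctional pyrimidine gene Cad differed by -0.16 ± 0.10. Cell cycle genes lay slightly lower (27 of 36 negative, median -0.11), with 1 at an unadjusted p under 0.05, E2f2 (2.05 against 3.51 CPM). Cdk6 lay the other way at 0.48 ± 0.23.

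Metabolic genes were mixed. Mthfd2, the mitochondrial folate enzyme, measured 12.7, 12.8, 14.7, 11.1 and 14.8 CPM in MycKO and 7.09, 9.86, 9.83, 4.19 and 6.06 CPM in WT libraries (0.81 ± 0.19, limma adjusted p = 0.371), without overlap. It and the polyamine acetyltransferase Sat1 (0.42 ± 0.12) were the 2 of 20 genes of polyamine, serine and one-carbon metabolism at an unadjusted p under 0.05. Among all genes tested 4.07% were higher at that threshold. In the glycolysis list the fructose 2,6-bisphosphate enzyme Pfkfb3 was lower in every MycKO library, at 309.9, 158, 213, 331 and 80.7 CPM against 355, 411, 409, 955 and 578 CPM (-1.37 ± 0.38, limma adjusted p = 0.409). The lactate exporter Slc16a3 lay higher (0.64 ± 0.18), as did the glucose transporter Slc2a1 (0.39 ± 0.13), and the median of the 22 genes was 0.02.

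The adipokines Adipoq (1362 ± 338 against 1465 ± 227 CPM) and Lep (1368 ± 523 against 1337 ± 407 CPM) differed by less than their spread (SD, n = 5 each), and Pparg, the master regulator of adipocytes, averaged 70.8 ± 21.8 against 82.9 ± 18.7 CPM. Lipid storage and lipolysis genes lay lower, 21 of 28 negative with a median of -0.18. Plin1, which coats the adipocyte lipid droplet and gates lipolysis, measured 517, 565, 231, 628 and 308 CPM in MycKO and 667, 703, 699, 1079 and 753 CPM in WT libraries (-0.87 ± 0.27, limma adjusted p = 0.471). Its groups did not overlap, and K18F28 and K18F30 were the lowest libraries. The glycerol channel Aqp7 (156 against 235 CPM, -0.59 ± 0.15), Plin5 (-0.93 ± 0.32) and the monoglyceride lipase Mgll (-0.33 ± 0.12) also had an unadjusted p under 0.05. On the other side Plin2, a droplet coat shared with macrophages, and the fatty acid transporter Slc27a1 lay higher (0.45 ± 0.18 and 0.47 ± 0.16). In the adipocyte identity and adipokine list 13 of 20 genes were negative, with a median of -0.19, and Nampt was the gene without overlap. Apln, the secreted apelin of that list, averaged 8.95 against 15.7 CPM (-0.80 ± 0.29).

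Of the lipid synthesis list, 3 of 29 genes had an unadjusted p under 0.05 and all were lower, beside 3.81% of all genes. They were the sterol enzyme Hmgcs1 (-0.89 ± 0.26), the desaturase Scd1 (-1.01 ± 0.46) and their regulator Srebf1 (-0.50 ± 0.23), while the list's median was 0.05. Insulin signalling held Akt2, the insulin-responsive kinase of fat, at 154, 161, 176, 194 and 123 CPM in MycKO and 234, 209.7, 201, 294 and 226 CPM in WT libraries (-0.53 ± 0.14, limma adjusted p = 0.402), with no overlap. The translation repressor Eif4ebp2 in the same list differed by -0.22 ± 0.10. Fatty acid oxidation genes were near level (median -0.05 over 27), with the coactivator Ppargc1a at -0.43 ± 0.18 and the muscle-type carnitine transferase Cpt1b at -0.50 ± 0.28. Of 10 tested thermogenesis genes 1 had an unadjusted p under 0.05, Ucp2 (466 against 319.9 CPM, 0.55 ± 0.15), a mitochondrial carrier abundant in immune cells, and the adrenergic receptor Adrb1 differed by -0.38 ± 0.20.

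The list of senescence-associated secretion had the highest median of the process lists, 0.35, with 19 of 23 genes positive and 6 at an unadjusted p under 0.05, none of them lower. Over all 13460 genes, 6898 were positive and 4.07% were higher at that threshold. The neutrophil attractant Cxcl2 measured 2.47, 1.57, 1.99, 1.56 and 2.44 CPM in MycKO and 0.336, 1.35, 1.05, 0.472 and 0.492 CPM in WT libraries (0.81 ± 0.18, limma adjusted p = 0.361), without overlap at these low levels. Its relative Cxcl1 (0.61 ± 0.17), the monocyte attractants Ccl7 (0.93 ± 0.33) and Ccl8 (0.63 ± 0.22), Cxcl16 (0.35 ± 0.14) and osteopontin, Spp1 (1.58 ± 0.66), were the others. Several of these are also made by macrophages, whose markers moved the same way as given above, and their part was not tested. Of the senescence marker genes Cdkn2a was at 2.16 ± 1.14 against 2.33 ± 0.312 CPM and Cdkn1a at 98.1 ± 31.1 against 70.7 ± 26.6 CPM (SD, n = 5 each), both within the spread of the libraries. Among cell cycle inhibitors and p53 targets, 5 of 24 genes were higher at an unadjusted p under 0.05, including the death receptor Fas (0.52 ± 0.16, no overlap) and the stress hormone Gdf15 (0.998 ± 0.33), and 1 was lower, Phlda3.

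Immediate early genes were positive in 24 of 26, with a median of 0.28, beside 6898 positive of all 13460 genes. At an unadjusted p under 0.05, 1 was lower, the nuclear receptor gene Nr4a2 (-0.34), and 5 were higher, among them Jun (70.0 ± 7.79 against 53.1 ± 6.74 CPM, SD, n = 5 each) and Jund (0.29 ± 0.10). Antigen presentation genes were positive in 17 of 18 (median 0.15). At an unadjusted p under 0.05, 5 were higher, beside 4.07% of all genes. In 4 every MycKO library lay above every WT library, beside 0.654% of all genes. The classical class I gene H2-K1 measured 1099, 1077, 946, 1181 and 905 CPM in MycKO and 763, 763, 808, 696 and 589 CPM in WT libraries (0.53 ± 0.13, limma adjusted p = 0.383, DESeq2 adjusted p = 0.00244). H2-Q4 (0.48 ± 0.12), H2-D1 (0.44 ± 0.13) and H2-T23 (0.34 ± 0.10) also had groups that did not overlap. These genes are close relatives and differ between strains, so reads may be split among them, and their values are uncertain. Interferon-stimulated genes were mixed (median 0.06 over 43), with the attractant Cxcl9 lower (-0.54 ± 0.14, no overlap) and the antiviral gene Oasl1 higher (0.59 ± 0.19).

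In the extracellular matrix list 3 of 35 genes were at an unadjusted p under 0.05, near the share over all genes (4.07% higher and 3.81% lower): the protease inhibitor Timp1 (0.81 ± 0.28), the elastin cross-linker Loxl1 (0.31 ± 0.11) and the proteoglycan Dcn (0.32 ± 0.13), each higher in MycKO tissue. In the chaperone list only calreticulin, Calr, was (0.30 ± 0.13), followed by the stress factor Ddit3 (0.28 ± 0.13). Of the circadian clock genes the repressors Cry1 (18.5 against 10.96 CPM, 0.71 ± 0.19, no overlap) and Bhlhe40 (0.52 ± 0.15) lay higher and Nr1d2 lay lower (-0.83 ± 0.31).

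**Figure D4:**
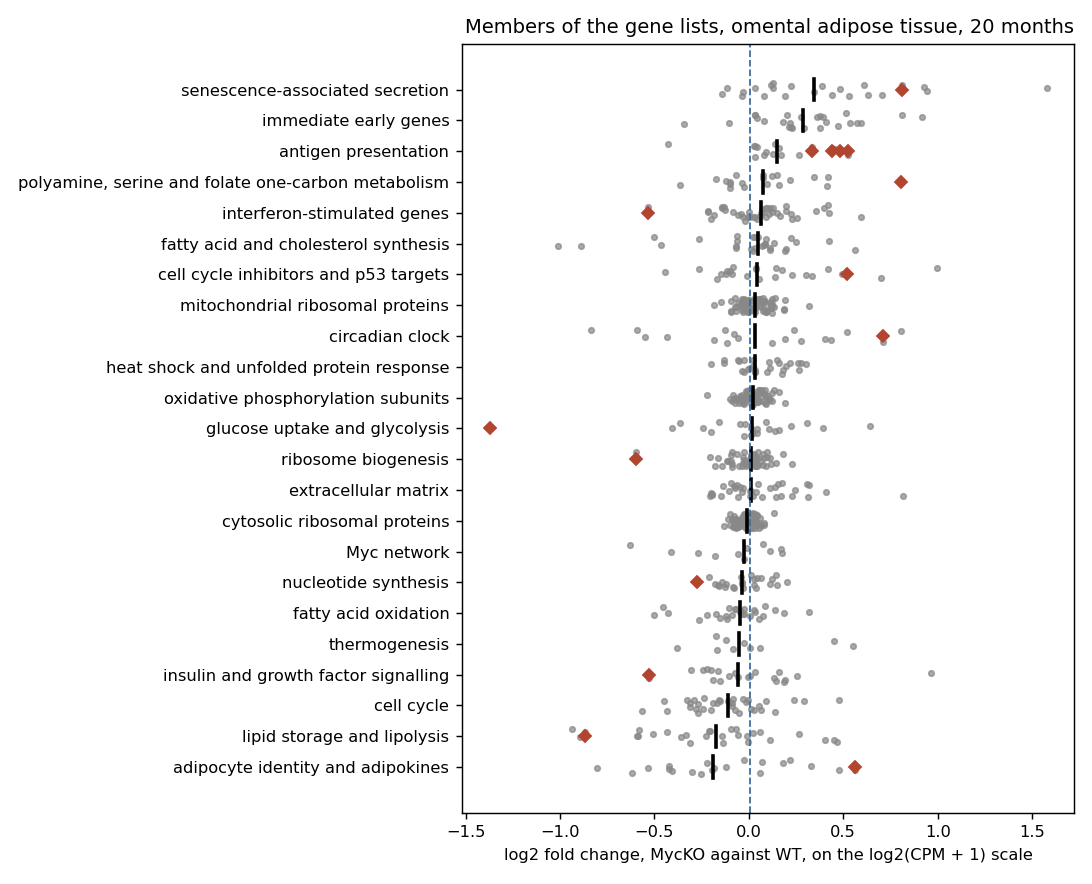
Log2 difference (MycKO against WT) of every tested member of 23 process lists (grey points, vertical jitter only), the list median (black bar) and members whose groups do not overlap (red diamonds); the dashed line is the median of all 13460 genes. Medians run from -0.19 for adipocyte identity and adipokines to 0.35 for senescence-associated secretion.

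A list of 13 genes called in other comparisons of the series was used, and 12 of these were tested here. The list does not hold every gene so called. Dkc1, for example, was called in adipose tissue at 5 months (limma adjusted p = 0.043) and is not in it. Of the 12, 7 had an unadjusted p under 0.05 in old adipose tissue, 3 higher and 4 lower. Among all genes tested 4.07% were higher and 3.81% lower. The choice of the 12 on data of the same series makes this no independent evidence. Nnt, the mitochondrial transhydrogenase that some C57 lines lack, measured 11.6, 13.4, 12.4, 12.6 and 10.8 CPM in MycKO and 32.0, 14.7, 34.4, 29.5 and 15.7 CPM in WT libraries (-0.92 ± 0.23, limma adjusted p = 0.383). WT libraries fell into a set near 15 CPM (W18F22 and W18F25) and a set at 29.5 CPM or more, while MycKO libraries were uniform. C130046K22Rik was listed at 0 in 4 WT libraries and at 2.59 CPM in W18F23, and ran from 2.001 to 4.18 CPM in MycKO libraries. Rasgef1b (0.69 ± 0.16) and the potassium channel Kcnh6 (1.07 ± 0.29) lay higher. The cell death gene Bid (-0.46 ± 0.11, no overlap), the choline transporter Slc5a7 (-0.998 ± 0.34) and Acbd4 (-0.50 ± 0.18) lay lower. Wnt4, Cdkn2c, Cd8a, Tmem267 and Dkk3 had an unadjusted p over 0.05, and Mug2 was below the filter with at most 1.46 CPM.

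The 5-month adipose libraries come from other mice and share no library with the old ones, so the genes above could be read there. Of the 88 genes that separated upwards at 20 months, 67 (76.1%) were also positive at 5 months, and 20 of them were at an unadjusted p under 0.05 and higher, against 1 lower. Of the 87 that separated downwards, 64 (73.6%) were negative at 5 months, 15 at an unadjusted p under 0.05 and lower against 1 higher. Over all 13460 genes 41.9% were positive and 58.1% negative at 5 months, and of the 14286 genes tested with both ages 4.64% were higher and 7.2% lower at an unadjusted p under 0.05. Among the 20 named genes 9 of 10 higher and 9 of 10 lower had the same sign at both ages, the exceptions being Snx10 (-0.08 at 5 months) and Axin2 (0.39 at 5 months). Lcn2 differed by 2.15 ± 0.49 at 5 months, Vsig4 by 1.61 ± 0.43, Gt(ROSA)26Sor by -0.85 ± 0.18 and Dkc1 by -0.65 ± 0.13 (limma adjusted p = 0.043 for Dkc1). Epididymis and gonad markers summed to between 0 and 6583 CPM in the young MycKO libraries and between 0 and 966 CPM in the young WT libraries, and their part in the 5-month values was not tested.

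The difference between the ages was tested itself. In the test of that difference limma called 0 of 14286 genes (0%), edgeR 0 and DESeq2 6. At 5 months Myc differed by -1.52 ± 0.25 and Pvt1 by 1.95 ± 0.22, larger in size than at 20 months, with a limma adjusted p of the age difference of 0.998 for each and unadjusted p of 0.023 and 0.00695. Wnt4 differed by 1.79 ± 0.20 at 5 and 0.27 ± 0.14 at 20 months (age difference -1.53 ± 0.30, limma adjusted p = 0.676), and Cdkn2c by -1.32 ± 0.24 and 0.04 ± 0.18 (limma adjusted p = 0.998).

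**Figure D5:**
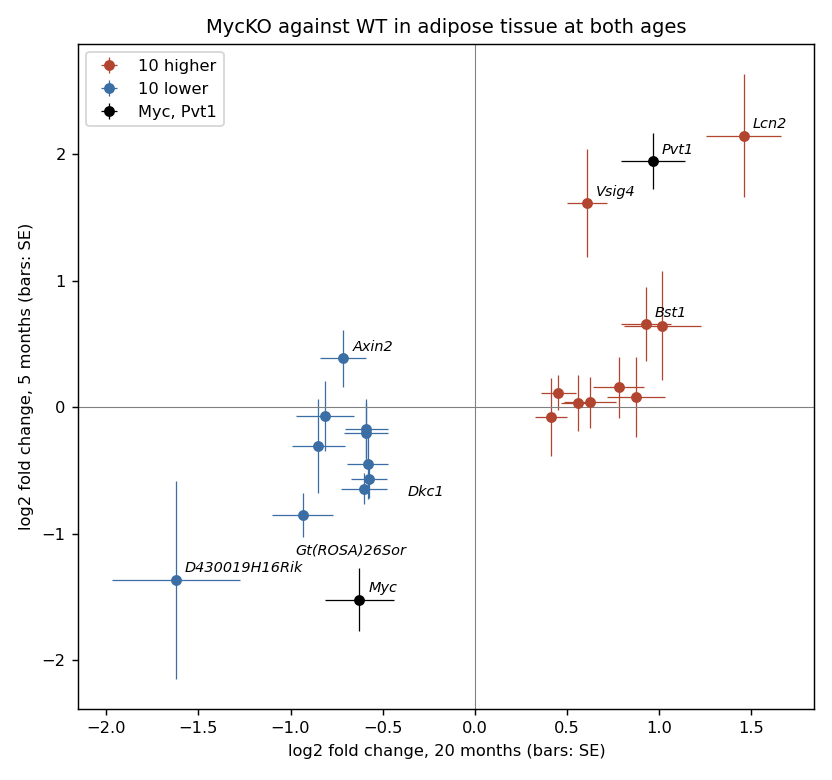
Log2 difference (MycKO against WT) in adipose tissue at 20 months (x) and 5 months (y) for the 20 genes with separated groups and for Myc and Pvt1, with SE bars. Axin2 is negative at 20 and positive at 5 months, and Pvt1 and Myc lie farther from 0 at 5 months.

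Liver and muscle of 20 months were compared in a model of all 30 old libraries, in which 10739 genes were tested. The knockout effect in adipose tissue and liver differed in 0 genes (0%) with limma and edgeR, and in 13 with DESeq2. Adipose tissue and muscle differed in 4 genes (0.0372%). These were Atp2a3 (difference of the 2 effects -1.42, adjusted p = 0.0409), Pth1r, the parathyroid hormone receptor (-1.32), Amotl2, an angiomotin family scaffold (-1.14), and Mycbp2, a ubiquitin ligase named for binding Myc (-0.81). In muscle their MycKO differences were 0.57, 1.01, 0.998 and 0.20, and in adipose tissue -0.85, -0.31, -0.15 and -0.61. Leaving out single libraries moved the count of 4 between 0 and 23, with 23 without muscle library K18S64, 15 without K18S63 and 13 without W18F23. The engineered loci were alike in direction in all 3 tissues: Gt(ROSA)26Sor differed by -1.03 ± 0.18 in liver and -1.08 ± 0.18 in muscle, Pvt1 by 0.95 ± 0.18 and 0.51 ± 0.18, and Myc by -1.16 ± 0.28 and -0.49 ± 0.28.

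When the spread of all 6 old groups was used in the same model, an alternative chosen after seeing the data, limma called 16 of 10739 genes in adipose tissue (0.149%), 8 higher and 8 lower. Beside Pvt1, Nampt, C130046K22Rik, Gt(ROSA)26Sor, Atp2a3, Prkce, Magi1, Dkc1, Pfkfb3 and Mycbp2 they included the myeloid genes Cd300ld, Lilr4b and Ms4a6d, the lysosomal protease Lgmn, the RNA editor Apobec1 and the nuclear pore gene Nup210. Cd300ld measured 51.1, 29.99, 24.4, 43.5 and 45.9 CPM in MycKO and 2.35, 7.02, 33.0, 3.5 and 3.94 CPM in WT libraries, so W18F23 alone overlapped with MycKO. Apobec1 measured 200.2, 116, 56.3, 133 and 188 CPM against 25.2, 49.1, 75.3, 27.5 and 38.7 CPM. Within each group the libraries took the same order for Apobec1 as for the macrophage sum, and the part of macrophage content in its difference was not tested. Nup210 measured 16.9, 6.11, 11.3, 13.3 and 8.79 CPM against 52.8, 27.96, 17.5, 25.4 and 26.7 CPM, with no overlap.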

How the data were processed

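The deposited table gives, per the file headers, a CPM for each gene and library. Its columns sum to different totals, so it was treated as a read signal that the authors scaled by 1 factor per library. Read recovery from that signal gave whole reads for 100% of the values (tolerance 0.01 of a read). The submitters' processing notes name the builds GRCm38.p6 and mm10. The aligner, the counting and its use of strand are not given in the sources used here. Of 36332 distinct gene IDs, 35336 had a symbol in the RefSeq table of GRCm38.p6. IDs without a symbol held 0.155% of old adipose reads.

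Genes above 1 CPM in at least 5 of the 10 libraries entered limma 3.58.1 on the log2(CPM + 1) scale (trend, Benjamini-Hochberg adjustment, R 4.3.3). The differences between ages and between tissues were contrasts in joint fits. edgeR 4.0.16 and DESeq2 1.42.0 were run on the recovered reads and called 0 and 92 genes. Scripts were tested on simulated data. Myc, Pvt1 and Gt(ROSA)26Sor were also tested by exact permutation (scipy 1.17.1). A log2 difference understates that of low genes. Pairs of libraries within a group differed by a chi-square of at least 21.7 per degree of freedom, more than repeat reads of 1 library would. Each was taken as 1 replicate, though this cannot show that each came from its own animal.

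Named genes were the 3 engineered ones, any called gene, and 10 higher and 10 lower genes with the smallest p. The higher and lower genes had groups that do not overlap and a mean of at least 5 CPM. Also named were the 2 members of each process list with the smallest p and 8 that show what a list is. The last were 13 genes from those called in other comparisons, not all of them. Other genes at an unadjusted p under 0.05, those near Gt(ROSA)26Sor and those called in the tissue or pooled fits were added after their values were seen. The members and lists were chosen with earlier results of these data known. Alternatives were the pseudocount, the filter, the scaling, the tool, the spread, sample weights and leaving out libraries. One marker gene is not reported here.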

Additional observations from a re-analysis of the deposited data

Results flagged for a closer look

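Of 82 groups of 5 libraries examined for a single library apart from the rest (23 named genes and 18 marker sums in each genotype), 3 held one, and chance alone gives about 1 in 20. WT library W18F24 was low for Cd14, at 11.3 CPM against 20.8 to 23.4 CPM in the other WT libraries. MycKO library K18F29 was high for the summed T and NK cell markers, at 40.6 CPM against 25.3 to 28.6 CPM. MycKO library K18F26 was high for the summed epididymis and gonad markers, at 26.1 CPM against 0.131 to 0.402 CPM.

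In 4 genes the test of the difference between tissues passed, with the knockout effect in adipose tissue below that in muscle at 20 months: Atp2a3 by -1.42, Pth1r by -1.32, Amotl2 by -1.14 and Mycbp2 by -0.81 on the log2 scale.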

How the results depend on the processing

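The count of 0 genes different in old adipose tissue was 92 with DESeq2, 1 with sample weights, 16 with the spread of all 6 old groups and 1 without K18F27 and K18F28 together, and 0 to 2 when single libraries were left out: Gt(ROSA)26Sor without K18F27, Lcn2 without K18F30, Cd300ld and C130046K22Rik without W18F23. It was also 0 with the spread of the 4 adipose groups, where 321 genes had an unadjusted p under 0.05 against 1061. It was 0 with edgeR and under the other pseudocounts, filters and scalings. For the age difference DESeq2 gave 6 genes, and leaving out single old adipose libraries gave 0 to 0. The 5-month libraries were not left out in turn. The liver difference gave 28 without a filter, 13 with DESeq2 and 0 to 6 without single libraries (6 without K18L06). The muscle difference (4 genes) gave 1 at a pseudocount of 0.1, 22 without a filter, 0 above a value of 5, 12 with library totals, 8 with TMM factors, 77 with DESeq2 and 0 to 23 without single libraries. The cause was not tested. Without K18F27 and K18F28, an alternative chosen after seeing the data, Myc was at -0.58, Pvt1 at 0.70 and Gt(ROSA)26Sor at -1.19. None then passed the exact permutation test after adjustment over the 3 genes, with 3 against 5 libraries. At that size the smallest possible p passes only if all 3 genes reach it, and the Myc groups overlapped. The test could therefore not decide on Pvt1 and Gt(ROSA)26Sor, whose groups still did not overlap. With limma, Gt(ROSA)26Sor was called in that setting (limma adjusted p = 0.0037).

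Some genes turned direction between settings, so the sign of their difference is not settled. In the main fit Rpl10 was at 0.13, Lep at -0.027 and Cd8a at -0.15. Without both libraries, Rpl10 was at -0.036, Lep at 0.32, Cdkn2a at 0.18, Cd8a at 0.046 and Tmem267 at 0.13. With sample weights, Lep was at 0.12, Cdkn2a at 0.027 and Cd8a at 0.062, and Lep was at 0.028 with edgeR and 0.027 with DESeq2. Leaving out single libraries gave -0.18 to 0.25 for Lep, -0.32 to 0.093 for Cdkn2a, -0.37 to 0.21 for Cd8a, -0.095 to 0.14 for Cdkn2c and -0.29 to 0.18 for Tmem267. No paired analysis was possible because the groups share no replicate numbers in the labels.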
